A study of Mus musculus with 24 samples.

Results

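Macrophages of the BTBR mouse strain that had met lipopolysaccharide (LPS) before were compared with macrophages of the same animals that met it for the first time. All ATAC-seq libraries labelled BTBR with 2 doses of LPS (LPSx2, 4 libraries) or 1 dose (LPSx1, 4 libraries) were used, which made 8 of the 24 libraries of the series. ATAC-seq inserts sequencing adapters into open chromatin with the Tn5 transposase, so that a peak marks DNA that is accessible. Macrophages were derived in 7 days of culture from the bone marrow of male BTBR T+ Itpr3tf/J mice at postnatal day 28. LPSx2 cultures received LPS at 100 ng/ml for 4 hours, were washed, rested for 20 hours in plain medium and received LPS at 100 ng/ml again for 24 hours. LPSx1 cultures had plain medium in place of the first dose and then LPS at 100 ng/ml for 24 hours. LPSx2 and LPSx1 libraries with the same biological replicate number are taken here as cultures of 1 animal, which gives animals 2, 3, 5 and 8, and each animal was sequenced in a lane of its own among these 8 libraries. Macrophages of the C57BL6/J strain treated in the same way (4 animals) and cultures kept in plain medium (media) were used for comparison. All but 2 of these libraries also entered the limma fits. In the lanes of animals 2, 3 and 5 a list among them set the length to which lists were cut within lanes. The labels give no separate cultures within an animal, so animals are the replicates. Exact permutation p-values ignore the pairing by animal unless a swap within animals or a replicate block is named. The limma p-values use a spread shared by all libraries fitted, of both strains and all treatments.

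Gram-negative bacteria carry LPS in their outer membrane, and macrophages sense it through Tlr4. The first contact activates NF-kB and AP-1 and, through secreted interferon, the STAT and IRF factors. After an earlier contact many inflammatory genes respond less to LPS while others respond as before or more, a state known as endotoxin tolerance or innate memory. The comparison of LPSx2 with LPSx1 addresses what the earlier dose left behind in chromatin at the end of the same final exposure.

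The deposited lists of animals 2, 3, 5 and 8 held 127291, 57055, 17180 and 15628 peaks with LPSx2, against 112455, 50116, 17521 and 13959 peaks with LPSx1. Animals 2 and 3 thus had far longer lists than animals 5 and 8 in both groups. The LPSx2 list of animal 3 held most peaks in duplicate, with 82.5% of its peaks overlapping another, and merging left 33339, against 50091 in the LPSx1 list of animal 3. Merged list length did not differ between LPSx2 and LPSx1 beyond the spread between animals (log2 difference of -0.07, 2-sided exact permutation p = 0.943, n = 4 each). The LPSx2 libraries had 8, 7, 13 and 13 additional PCR cycles in animals 2, 3, 5 and 8, against 7, 8, 12 and 12 cycles in the LPSx1 libraries. Of 25 macrophage identity genes 24 had a peak in at least 1 of the 8 lists, and their summed peaks ranged from 26 to 112 per library with LPSx2 and from 31 to 104 with LPSx1. Apoe was the member without one. Summed peaks at 8 B-cell markers ranged from 0 to 1 with LPSx2 and were 0 in each LPSx1 list, with Cd79a, Pax5 and Ms4a1 among the members at 0. Summed peaks at 10 neutrophil markers ranged from 0 to 3 with LPSx2 and from 0 to 2 with LPSx1, with Ly6g and Elane at 0, and those at 9 erythroid and mast-cell markers ranged from 0 to 1 with LPSx2 and were 0 with LPSx1. The 12 markers of T and NK cells had sums that ranged from 3 to 9 with LPSx2 and from 4 to 8 with LPSx1, with Cd3e, Cd4 and Cd8a at 0. Those at 10 dendritic-cell markers ranged from 0 to 12 with LPSx2 and from 3 to 10 with LPSx1, with Irf4 at 0. Those at 10 stromal markers ranged from 2 to 4 with LPSx2 and from 2 to 6 with LPSx1, with Col1a1 and Pdgfra at 0. Only members at 0 are named, and others had peaks. At least 1 of the 8 lists had a peak at 9 of 10 dendritic-cell, 6 of 12 T- and NK-cell and 4 of 10 stromal markers. The same held for 3 of 10 neutrophil, 1 of 8 B-cell and 1 of 9 erythroid and mast-cell markers. In all 8 lists 2 of the T- and NK-cell markers had a peak. In bulk samples fewer cells of a type and a closed region in each cell cannot be told apart.

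The clearest difference lay in the sequence of the distal peaks, those more than 1 kb from any transcription start site (TSS). AP-1, the dimer of Fos and Jun proteins that opens enhancers on stimulation, binds TGANTCA. With each list limited to its 13957 highest-scoring peaks, the share of distal peaks holding this motif on either strand was 29.6%, 29.4%, 31.9% and 31.5% in LPSx2 libraries of animals 2, 3, 5 and 8, against 35.7%, 35.0%, 34.7% and 32.1% in LPSx1 libraries. The LPSx2 share was lower in 4 of 4 animals, and the groups did not overlap. The mean was 30.6% ± 1.29 with LPSx2 and 34.3% ± 1.58 with LPSx1 (SD, n = 4 each), a difference of -3.72 percentage points (SE of the paired difference 1.29). Its exact permutation p was 0.0286, 2-sided and the smallest that 70 arrangements of 4 against 4 libraries allow, and the Benjamini-Hochberg adjusted value over 13 motifs was 0.186. With the doses swapped within animals the exact p was 0.125, the smallest that 16 arrangements allow, so the difference did not pass the threshold of 0.05 after adjustment. Each share rested on 6023 to 8208 distal peaks, whose 95% Wilson interval was at most 1.20 points to each side and covers counting error only.

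**Figure D1:**
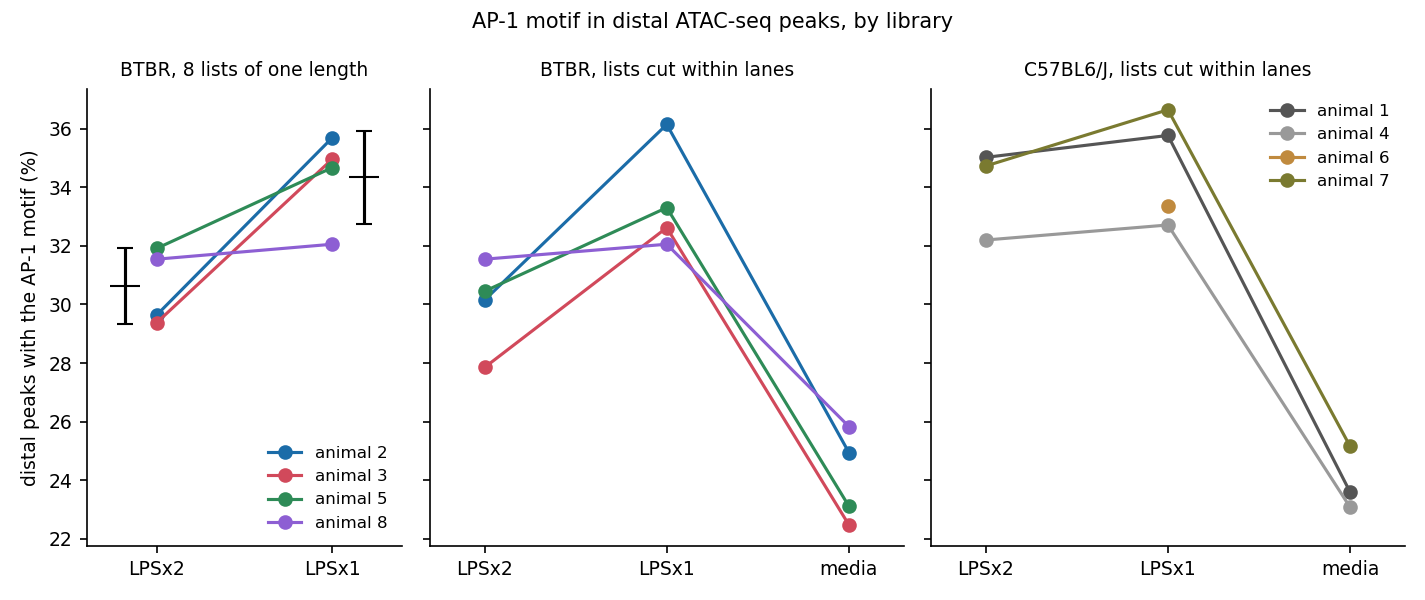
Share of distal peaks holding the AP-1 motif in percent (vertical axis, which does not start at 0) by treatment, each line 1 animal; left, 8 BTBR lists of one length with mean and SD in black; middle and right, lists cut within lanes in BTBR and C57BL6/J. The 4 LPSx2 libraries on the left lie between 29.4% and 31.9%, below the LPSx1 libraries at 32.1% to 35.7%.

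The difference was uneven between animals. It was -6.04 points in animal 2 and -5.58 in animal 3, whose lists were long, and -2.75 in animal 5 and -0.509 in animal 8, whose lists were short. Each lane held 1 of these animals, so the animal, its lane and its list length cannot be told apart. The mean GC content of distal peaks was higher with LPSx2 by 1.03 and 0.401 points in animals 2 and 3 and lower in animals 5 and 8 (differences of -0.0596 and -0.218), and its part in the difference was not tested beyond the following range. Among distal peaks of 45% to 55% GC alone the AP-1 difference was -4.01 points (exact permutation p = 0.0571). With whole lists, which differ in length, it was -2.27 points and the groups overlapped (exact permutation p = 0.486).

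Media libraries of the same animals had the lowest AP-1 shares. With lists cut to equal length within a lane, animals 2, 3, 5 and 8 had 30.1%, 27.9%, 30.5% and 31.5% with LPSx2 and 36.1%, 32.6%, 33.3% and 32.1% with LPSx1, against 24.9%, 22.5%, 23.1% and 25.8% in media. The LPSx2 value lay between media and LPSx1 in 4 of 4 animals. In C57BL6/J the LPSx2 share was lower than the LPSx1 share in 3 of 3 animals, by 1.06 points on average. The BTBR difference exceeded it by 2.47 points, which did not pass a test of the strain difference (BTBR minus C57BL6/J of -2.47, exact permutation p = 0.171, adjusted p = 0.557).

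Region by region, the 2 lists of an animal differ in the regions found in only one of them. The following shares come from the same libraries and are no further evidence for the AP-1 difference. A region spans overlapping peaks of the libraries fitted and can be wider than a peak, and lists were here cut within lanes. The level of these shares is therefore not comparable with that of the peak shares above. In animal 2 the AP-1 motif lay in 20.3% of the 1355 distal regions found only with LPSx2, against 49.4% of the 1402 found only with LPSx1. In animal 3 the shares were 20.9% of 3112 regions found only with LPSx2 and 38.8% of 3499 found only with LPSx1. In animal 5 they were 27.2% of 3608 found only with LPSx2 and 34.1% of 2842 found only with LPSx1. In animal 8 they were 31.3% of 3395 found only with LPSx2 and 31.1% of 2517 found only with LPSx1. The order thus held in animals 2, 3 and 5 and was absent in animal 8. There the regions found in only one list differed in number, with more for LPSx2, and hardly in motif share. Distal regions found in both lists of an animal held the motif in 37.3% to 41.6% of cases.

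**Figure D2:**
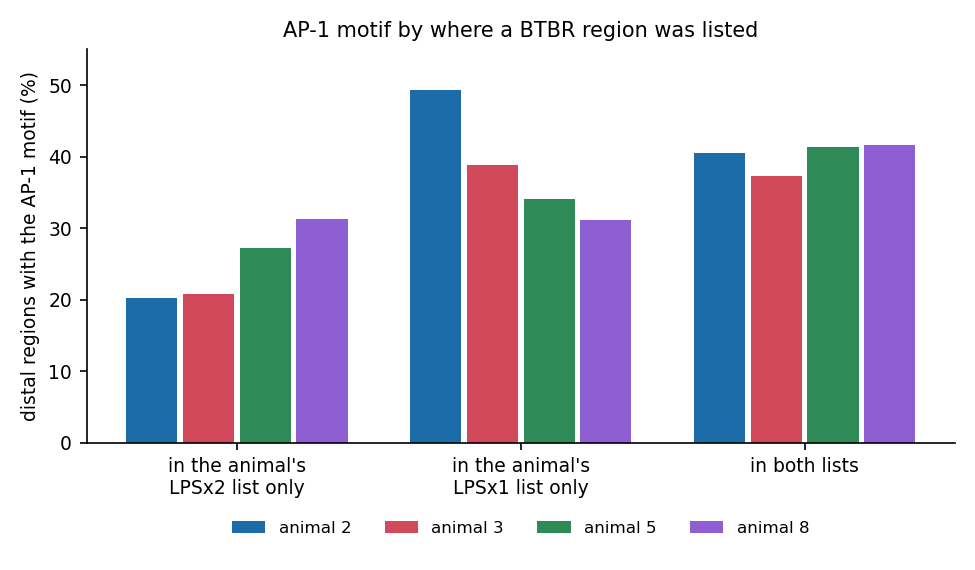
Share of distal regions holding the AP-1 motif in percent (vertical axis) by whether the region was in an animal's LPSx2 list only, its LPSx1 list only or both, each bar 1 BTBR animal with no error bar. LPSx2-only regions run from 20.3% to 31.3% and LPSx1-only regions from 31.1% to 49.4%.

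Other motifs differed by fewer percentage points, though many were also rarer. The antioxidant response element TGACNNNGC, bound by Nfe2l2 with small Maf proteins and partly overlapping AP-1, was in 15.1%, 15.5%, 15.3% and 15.8% of distal peaks with LPSx2, against 16.13%, 16.03%, 16.29% and 15.98% with LPSx1 in animals 2, 3, 5 and 8. The LPSx2 share was lower in 4 of 4 animals and the groups did not overlap (difference -0.693 points, exact permutation p = 0.0286, adjusted p = 0.186). With lists cut within lanes the groups overlapped, as 15.8% in animal 8 with LPSx2 exceeded 15.1% in animal 3 with LPSx1. The difference was then -0.708 points (exact permutation p = 0.143), and with whole lists it was -0.503 points (exact permutation p = 0.686). The interferon response element GAAANNGAA, bound by IRF and STAT complexes, was in 8.44%, 8.37%, 6.74% and 7.04% with LPSx2, against 8.58%, 8.58%, 7.64% and 7.93% with LPSx1. It was lower in 4 of 4 animals, but the groups overlapped (difference -0.532 points, exact permutation p = 0.286, adjusted p = 0.743). The aryl hydrocarbon receptor motif TTGCGTG was in 0.756%, 0.703%, 0.757% and 0.590% with LPSx2, against 0.694%, 0.633%, 0.548% and 0.512% with LPSx1, higher in 4 of 4 animals with overlapping groups (exact permutation p = 0.114, adjusted p = 0.495). The other 9 motifs went both ways among the 4 animals. NF-kB differed by 0.244 points, PU.1 by 0.157 and C/EBP by 0.0578 (LPSx2 minus LPSx1, exact permutation p of 0.743, 0.886 and 0.83).

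**Figure D3:**
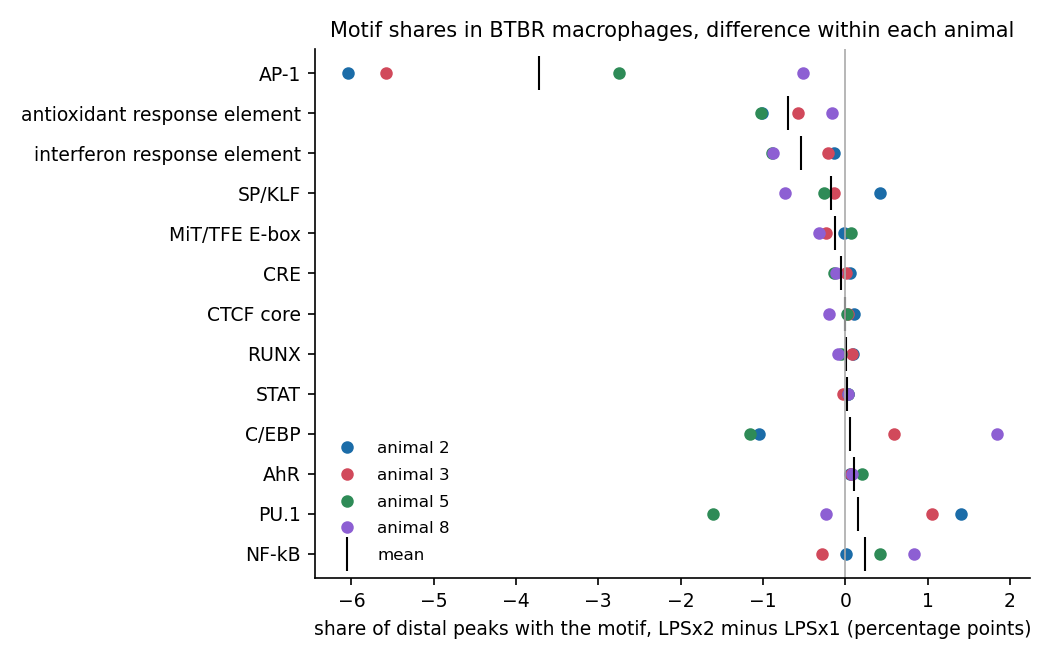
Difference in the share of distal peaks holding each of 13 motifs, LPSx2 minus LPSx1 in percentage points (horizontal axis), with 1 point per BTBR animal and the mean as a black bar. AP-1 stands farthest from 0, with a mean of -3.72, while the means of PU.1, C/EBP and NF-kB lie between 0.0578 and 0.244.

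The share of peaks at promoters, within 1 kb of a TSS, went opposite ways in the animals. It was 42.2%, 44.96%, 51.8% and 49.0% with LPSx2 in animals 2, 3, 5 and 8, against 41.2%, 43.4%, 56.8% and 55.2% with LPSx1. LPSx2 was thus higher by 0.967 and 1.59 points in animals 2 and 3 and lower in animals 5 and 8 (differences of -5.09 and -6.22). The mean was 47.0% ± 4.26 with LPSx2 and 49.2% ± 8.03 with LPSx1 (SD, n = 4 each; exact permutation p = 0.657).

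Single regions were followed by detection. A region counted as gained when it was in the LPSx2 and not the LPSx1 list in at least 3 of the 4 animals with no animal showing the reverse, and as lost when the opposite held, with lists cut within lanes. Of 34326 regions in any of the 8 lists 109 were gained, or 0.318%, and 200 were lost, or 0.583%. With lists cut to the shorter of each animal 105 were gained and 79 lost, so which of the 2 was more frequent depended on the list length. This is a description of the lists with no test, and 4514 regions were in all 8 lists. The AP-1 motif lay in 14 of 75 gained distal regions (18.7%) and in 44 of 100 lost distal regions (44.0%), beside 31.4% of the 21874 other distal regions. These regions come from the same 8 libraries as the AP-1 difference above, so their shares are no further evidence for it. Promoters made up 31.2% of gained and 50.0% of lost regions, beside 35.7% of the others. Of the gained regions 33.0% and of the lost regions 28.5% were in no media list, beside 38.3% of the others.

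In 4 of 4 animals 2 regions were gained and 5 were lost. The best-known gene among them was Cxcl10, which encodes a chemokine induced by interferon that attracts T cells. Its lost region, 86 bp from the TSS (mm10 chr5:92348838-92349113, in an intron of the overlapping gene Art3), was in 0 of 4 LPSx2 lists. In the LPSx1 lists it ranked at 10.7, 27.1, 12.8 and 18.7 in animals 2, 3, 5 and 8, on a scale from 100 for the best peak of a list to 0 for a region not listed. It was in 0 of 4 media lists. In whole lists it was in 1 of 4 LPSx2, 4 of 4 LPSx1 and 1 of 4 media lists. In C57BL6/J it was in 1 of 3 LPSx2 and 1 of 3 LPSx1 lists.

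The other 4 lost regions were intronic. They lay in Lmtk2, a membrane kinase gene, in Msra, which encodes a methionine sulfoxide reductase, in Man1a2, which encodes a mannosidase of N-glycan trimming, and in Pcnx2. The Lmtk2 region ranked at 38.6, 32.4, 29.2 and 43.5 with LPSx1 and was in 4 of 4 media lists, the Man1a2 region was in 0 of 4 media lists and the Msra region was in 3 of 4. In whole lists the Lmtk2 region was in 3 of 4 LPSx2 lists, and the Msra, Man1a2 and Pcnx2 regions in 2 of 4 each. The Man1a2 region was in 1 of 4 whole media lists. Scores at which the lists ended differed between libraries, so a region left out of a list need not have a lower score than one kept in another. One gained region lay 508 bp from a TSS of Hsd11b1, which encodes the enzyme that regenerates active glucocorticoid. It ranked at 21.0, 37.4, 21.2 and 23.5 with LPSx2 in animals 2, 3, 5 and 8, against 0 of 4 LPSx1 and 0 of 4 media lists. In whole lists it was in 2 of 4 LPSx1 and 1 of 4 media libraries. The other gained region, 21 bp from the TSS of the dermatan sulfotransferase gene Chst14, ranked at 3.24, 47.7, 52.8 and 53.0 with LPSx2, against 0 of 4 LPSx1 lists and 2 of 4 media lists. In whole lists it was in 2 of 4 LPSx1 and 4 of 4 media libraries, and in C57BL6/J it was in 0 of 3 LPSx2 and 2 of 3 LPSx1 lists.

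Sequences are shown for the 5 of these 7 regions whose peak window holds one of the consensus motifs searched. They are also shown for 3 lost regions at interferon-stimulated genes chosen after their values were seen. The Ifit1 window is a peak of the LPSx2 list of animal 3, where that region was still listed. The Man1a2 and Chst14 windows hold none of the motifs and are not printed. The sequences are the windows of the highest-ranked peak in mm10 (C57BL/6J reference, plus strand, not BTBR sequence), without annotated UTR bases. Capitals mark matches on either strand to AP-1 (TGANTCA), NF-kB, PU.1 (GAGGAAGT), C/EBP (TTGCNNAA), RUNX (TGTGGTTT) and the interferon response element (GAAANNGAA), and matches to STAT, CRE and aryl hydrocarbon receptor consensus letters, which none of them holds, were also searched.
Cxcl10, chr5:92348890-92349076: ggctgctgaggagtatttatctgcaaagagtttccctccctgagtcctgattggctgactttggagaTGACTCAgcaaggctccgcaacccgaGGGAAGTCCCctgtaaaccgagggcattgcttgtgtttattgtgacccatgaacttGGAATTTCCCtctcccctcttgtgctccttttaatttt
Gbp3, chr3:142559668-142559868: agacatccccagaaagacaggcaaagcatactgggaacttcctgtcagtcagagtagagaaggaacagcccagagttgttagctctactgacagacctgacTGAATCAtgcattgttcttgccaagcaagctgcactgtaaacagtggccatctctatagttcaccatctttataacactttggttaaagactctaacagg
Rsad2, chr12:26441913-26442113: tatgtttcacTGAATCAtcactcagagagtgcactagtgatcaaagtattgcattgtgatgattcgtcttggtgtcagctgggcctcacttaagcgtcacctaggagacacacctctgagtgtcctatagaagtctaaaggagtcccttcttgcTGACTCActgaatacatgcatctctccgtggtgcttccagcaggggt
Ifit1, chr19:34640744-34640870: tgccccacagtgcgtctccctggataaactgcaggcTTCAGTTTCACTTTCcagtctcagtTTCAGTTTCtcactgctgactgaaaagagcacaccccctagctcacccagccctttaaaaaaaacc
Lmtk2, chr5:144126054-144126254: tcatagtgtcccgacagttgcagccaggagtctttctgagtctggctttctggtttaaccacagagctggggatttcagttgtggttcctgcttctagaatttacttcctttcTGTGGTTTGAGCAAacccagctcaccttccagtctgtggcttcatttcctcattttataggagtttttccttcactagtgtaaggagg
Pcnx2, chr8:125845270-125845470: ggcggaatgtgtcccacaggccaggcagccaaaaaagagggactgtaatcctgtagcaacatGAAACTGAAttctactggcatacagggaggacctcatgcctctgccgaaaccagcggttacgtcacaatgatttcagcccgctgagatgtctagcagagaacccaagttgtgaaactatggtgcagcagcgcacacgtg
Msra, chr14:64327605-64327805: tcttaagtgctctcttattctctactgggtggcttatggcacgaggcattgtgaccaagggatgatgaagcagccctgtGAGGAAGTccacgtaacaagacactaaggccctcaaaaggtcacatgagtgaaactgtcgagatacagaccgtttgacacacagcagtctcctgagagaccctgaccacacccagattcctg
Hsd11b1, chr1:193243049-193243249: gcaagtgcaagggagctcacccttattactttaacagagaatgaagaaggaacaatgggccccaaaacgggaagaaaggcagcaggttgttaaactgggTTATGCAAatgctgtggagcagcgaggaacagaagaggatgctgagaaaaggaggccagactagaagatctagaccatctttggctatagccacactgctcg
The Cxcl10 window holds an AP-1 match followed by 2 NF-kB matches. At least 1 match to each motif, in any order, was found in 0.253% of the 58155 promoter peaks of the 8 lists. AP-1 was in 5.32% of these peaks and NF-kB in 3.79%, with or without the other. The Gbp3 window, within 1 kb of a TSS, holds 1 AP-1 match, found in 5.32% of promoter peaks. The distal Rsad2 window holds 2, beside 31.4% of the 68621 distal peaks with at least 1. The Ifit1 window holds 3 matches to the interferon response element, 2 of them overlapping, and the element is in 3.70% of promoter peaks. The intronic Lmtk2 window holds a RUNX and a C/EBP match that overlap each other, found in 3.98% and 15.2% of distal peaks. The Pcnx2 window holds 1 interferon response element, found in 8.05% of distal peaks, and the Msra window 1 PU.1 match, found in 12.3%. The Hsd11b1 window, within 1 kb of a TSS, holds 1 C/EBP match, found in 5.39% of promoter peaks. A match is a description of the letters and not a bound site.

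Among gained and lost regions assigned to a gene of the lists described below, within 100 kb of its TSS, 5 were lost and 5 gained of 1326 regions, or 0.377% each, beside 0.583% lost and 0.318% gained among all regions. The 5 lost were at Cxcl10, Gbp3, Rsad2, Ifit1 and Tap1, genes known to be induced by interferon. Gbp3 encodes a guanylate-binding protein, Rsad2 the antiviral protein viperin, Ifit1 a sensor of foreign RNA and Tap1 the peptide transporter of antigen presentation. Of 77 regions at interferon-stimulated genes 3 were lost (3.90%) and 0 gained, beside 0.583% of all regions. The regions were picked for their detection, so these shares carry no test.

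The Gbp3 region (chr3:142559604-142559875, 313 bp from the TSS) was in 0 of 4 LPSx2 lists and ranked at 4.48, 49.9, 0 and 28.8 in LPSx1 lists of animals 2, 3, 5 and 8. The Rsad2 region (chr12:26441891-26442171, intergenic, 14421 bp from the TSS) was in 0 of 4 LPSx2 lists and ranked at 8.64, 21.4, 0 and 35.6 with LPSx1. Both were in 0 of 4 media lists, so in the cut lists they were listed with LPSx1 alone among the 3 treatments of BTBR. In whole media lists the Gbp3 region was in 1 of 4 and the Rsad2 region in 0 of 4. The Ifit1 promoter region (chr19:34640682-34640956, 52 bp) ranked at 0, 36.1, 0 and 0 with LPSx2, against 29.2, 10.8, 0.386 and 20.6 with LPSx1, so that animal 3 went the other way in rank. Its mean difference in rank was -6.225 (limma adjusted p = 0.9975). The Tap1 region (chr17:34187282-34187562, 131 bp from the TSS, over the UTR of Psmb9) ranked at 0, 27.8, 0 and 0 with LPSx2, against 0.0793, 41.7, 49.8 and 32.3 with LPSx1, and was in 3 of 4 media lists. In whole lists 2, 1, 2 and 2 of 4 LPSx2 libraries had the Gbp3, Rsad2, Ifit1 and Tap1 regions, against 3, 3, 4 and 4 of 4 LPSx1 libraries.

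The 5 gained regions were at Fos and Mafg, members of the AP-1 family list, at Cebpb, which encodes a C/EBP factor induced by LPS, and at the macrophage factor genes Maf and Tfec. The Fos region (chr12:85485938-85486280, intergenic, 12219 bp from the TSS) ranked at 0, 52.7, 17.5 and 59.2 with LPSx2, against 0 of 4 LPSx1 lists, and was in 3 of 4 media lists. The Cebpb region (chr2:167692891-167693255, 4158 bp from the TSS) ranked at 17.3, 79.2, 0 and 18.7 with LPSx2, against 0 of 4 LPSx1 and 0 of 4 media lists. The Mafg region, in an intron of Mafg 959 bp from the TSS, ranked at 7.76, 40.7, 41.2 and 0 with LPSx2, against 0 of 4 LPSx1 lists and 1 of 4 media lists. The Tfec region ranked at 8.20, 67.7, 32.9 and 52.9 with LPSx2 and at 0, 54.8, 0 and 0 with LPSx1, and the Maf region at 28.0, 74.4, 26.2 and 2.92 with LPSx2 and at 36.3, 0, 0 and 0 with LPSx1. Both were in 3 of 4 media lists. In whole lists each of the 5 was in 2 of 4 LPSx1 libraries, and the Fos, Tfec and Maf regions were in 4 and the Cebpb and Mafg regions in 3 of 4 LPSx2 libraries. In whole media lists the Mafg region was in 4 of 4 and the Cebpb region in 0 of 4. None of the 5 regions holds an AP-1 match, beside 31.4% of distal and 5.32% of promoter peaks that hold one. With 5 regions this count cannot be told apart from those shares.

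**Figure D4:**
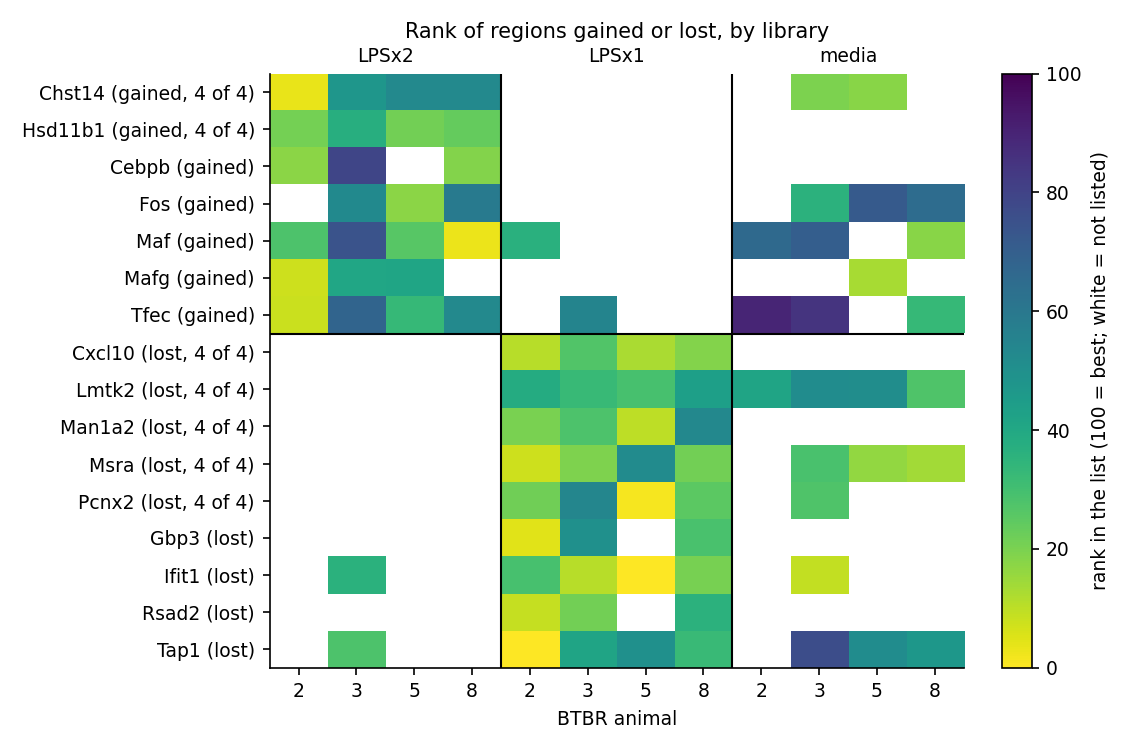
Rank of 16 regions in 12 BTBR libraries (colour, 100 for the best peak, white for not listed), with LPSx2, LPSx1 and media from left to right and 1 column per animal. Rows are named by the nearest gene, gained regions above lost ones, and the Cxcl10, Lmtk2, Man1a2, Msra and Pcnx2 rows are white in 4 of 4 LPSx2 columns.

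A test over ranks found no region past the threshold. Of 20711 regions present in at least 6 of the 22 libraries fitted, 0 passed at a limma adjusted p under 0.05 (0%), and 1196 had an unadjusted p under 0.05, of which 477 were higher and 719 lower with LPSx2. The region with the smallest p lay in an intron of Gm12258 (chr11:58849839-58850133). It ranked at 0, 0, 40.5 and 3.81 with LPSx2 in animals 2, 3, 5 and 8, against 27.8, 62.4, 77.3 and 90.1 with LPSx1 (difference -53.3 ± 10.8, SE, limma adjusted p = 0.287), and was in 0 of 4 media lists. The promoter of Fem1a, a substrate receptor of a ubiquitin ligase (chr17:56256488-56256842), ranked at 0, 0, 18.4 and 0 with LPSx2, against 62.6, 67.7, 71.5 and 51.9 with LPSx1 (adjusted p = 0.287), and the groups did not overlap. The start of Tgoln1, a trans-Golgi protein gene (chr6:72616669-72616938), ranked at 0, 24.0, 0 and 0 with LPSx2, against 70.8, 86.5, 59.7 and 79.9 with LPSx1 (adjusted p = 0.291). In whole lists the Gm12258 and Fem1a regions were in 4 of 4 and the Tgoln1 region in 2 of 4 LPSx2 libraries. The Gm12258 region was in 2 of 4 whole media lists. The Fem1a and Tgoln1 regions were in 4 of 4 media lists, at ranks of 68.9, 80.5, 77.0 and 79.7 for Fem1a and 53.5, 44.7, 73.7 and 48.8 for Tgoln1. The promoters of Brpf3 and Calcoco1 were the other 2 on the lower side, with differences of -60.1 and -48.2 (adjusted p of 0.449 and 0.536).

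On the higher side the promoter of Klf3, a Kruppel-like transcriptional repressor (chr5:64802995-64803592), ranked at 93.8, 97.7, 82.9 and 87.1 with LPSx2, against 0, 72.3, 76.7 and 66.1 with LPSx1 (difference 36.6 ± 8.55, limma adjusted p = 0.449). The groups did not overlap, and media ranks were 75.8, 96.1, 94.9 and 96.0. A region in an intron of Ppp1r21 nearest to Ston1 (chr17:88581444-88581922) ranked at 52.5, 56.2, 55.8 and 63.0 with LPSx2, against 0, 40.7, 0 and 0 with LPSx1 (adjusted p = 0.449), and was in 0 of 4 media lists. The promoter of Olfml2b and intergenic regions nearest to Dnajb12 and Plekho2 had differences of 52.0, 51.0 and 34.2 (adjusted p = 0.650 each). All 10 regions differed in the same direction in 4 of 4 animals. No region passed a test of the difference between BTBR and C57BL6/J in the response (0 of 20711 by limma, 0%, with 689 at an unadjusted p under 0.05).

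Peaks were also counted per gene, within 100 kb of the nearest protein-coding TSS. List length was equal within each lane, so these numbers describe how the top peaks were distributed over genes, not total accessibility. Of 9141 genes tested 0 passed at a limma adjusted p under 0.05 (0%), and 422 had an unadjusted p under 0.05, of which 172 were higher and 250 lower with LPSx2. Differences are given below with this limit, and genes are named because their unadjusted p was smallest among those that differed one way in at least 3 animals and the other way in 0.

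Hsd11b1, whose gained region is described above, had 2, 2, 2 and 2 peaks with LPSx2 in animals 2, 3, 5 and 8, against 1, 1, 1 and 1 with LPSx1 and 0, 0, 1 and 1 in media. It lies on chromosome 1 (193221634 to 193264075, mm10), and its difference of 1 ± 0.24 peaks (SE) had a limma adjusted p of 0.80. With whole lists it was 0.25 peaks. Klhl3, an adaptor of a cullin ubiquitin ligase (chromosome 13, 58000228 to 58113592), had 1, 2, 1 and 2 peaks with LPSx2, against 0, 1, 0 and 0 with LPSx1 (1.25 ± 0.24, adjusted p = 0.405). Rbm47, an RNA-binding protein gene (chromosome 5, 66016549 to 66173118), had 8, 13, 6 and 4 peaks with LPSx2, against 5, 12, 1 and 2 with LPSx1 (2.75 ± 0.71, adjusted p = 0.896; 1.5 with whole lists). It was higher with LPSx2 in 4 of 4 animals and in 0 of 3 C57BL6/J animals. The kinesin subunit gene Kif3b and the GTPase gene Arl4a were higher in 4 of 4 animals, as was Smim24. Birc2, which encodes the ubiquitin ligase cIAP1 of TNF receptor signalling, had 1, 2, 2 and 2 peaks with LPSx2, against 1, 1, 1 and 1 with LPSx1 (adjusted p = 0.896). Cntln, Ndfip1 and Nfx1 were likewise higher by 1 peak in 3 animals, but with whole lists the differences of Ndfip1 and Nfx1 were -0.50 peaks.

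Atp9b, a gene of the P4-type ATPase family (chromosome 18, 80734141 to 80934060), had the smallest p of all genes. It had 0, 0, 0 and 1 peaks with LPSx2, against 1, 1, 2 and 2 with LPSx1 and 0, 0, 1 and 1 in media (difference -1.25 ± 0.20, limma adjusted p = 0.270). The glutamine transporter gene Slc38a1 (chromosome 15, 96571418 to 96642913) had 0, 2, 1 and 0 peaks with LPSx2, against 1, 4, 3 and 1 with LPSx1 and 0, 2, 1 and 0 in media (-1.50 ± 0.30, adjusted p = 0.405; -0.75 with whole lists). Its LPSx2 numbers thus equalled those of media in each animal. The small GTPase gene Nras had 0, 1, 0 and 0 peaks with LPSx2, against 1, 2, 1 and 1 with LPSx1 (-1 ± 0.21, adjusted p = 0.405; -0.5 with whole lists), and Pcnx2 and Ankrd17 were also lower by 1 peak in 4 of 4 animals, although with whole lists the Pcnx2 difference was 0.25. Tmem35b, Tmem183a, Hcfc2, Gm21060 and Gm10944 were lower in 3 animals. With such small numbers a difference of 1 peak is the smallest step there is.

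**Figure D5:**
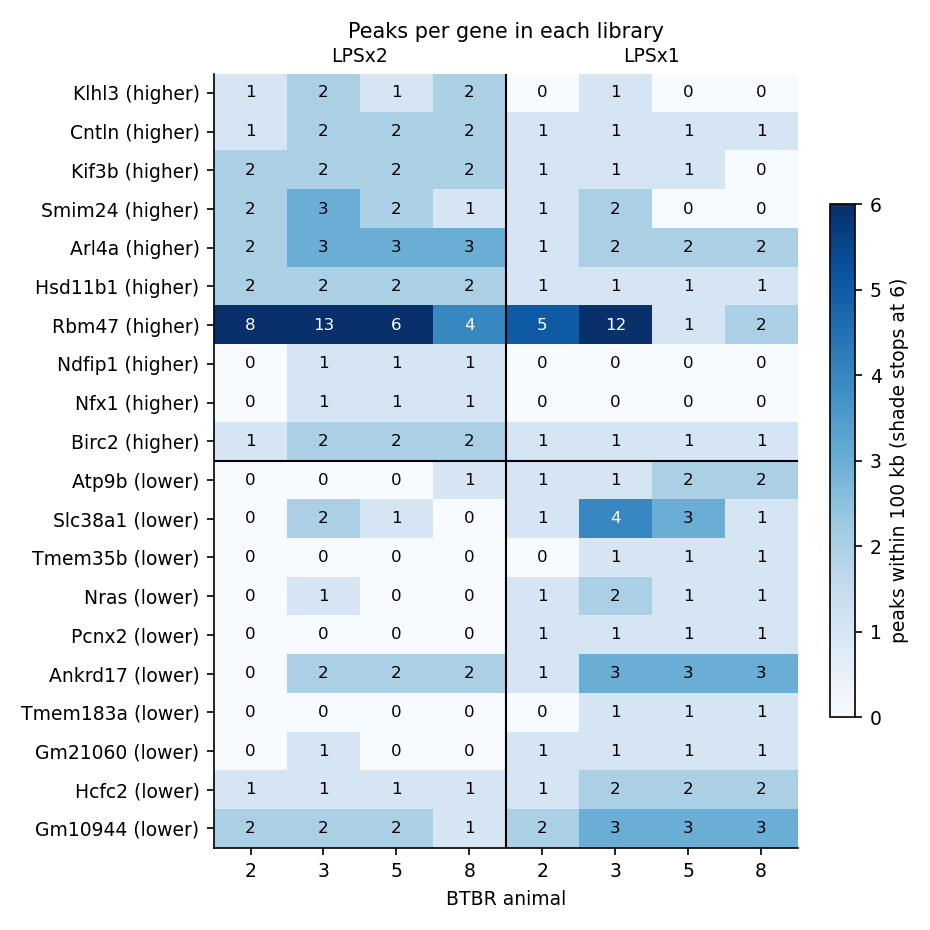
Number of peaks within 100 kb (cell numbers and shade) at the 20 genes named by the rule, in LPSx2 (left) and LPSx1 (right) libraries of 4 BTBR animals. The 10 upper genes had more peaks and the 10 lower genes fewer with LPSx2 in at least 3 animals, mostly by 1 peak, and 0 passed the test.

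Among genes with the same direction in 4 of 4 animals the largest differences, picked after their values were seen, were at Zfp36l2 and Arhgef3. Zfp36l2, which promotes the decay of AU-rich mRNAs (chromosome 17, 84183931 to 84187947), had 14, 21, 6 and 4 peaks with LPSx2, against 6, 14, 4 and 3 with LPSx1 and 11, 22, 6 and 6 in media. Its difference was 4.50 ± 1.29 peaks (limma adjusted p = 0.896, not passed), and with whole lists it was -1.75. Arhgef3 had 1, 3, 0 and 1 peaks with LPSx2, against 3, 7, 2 and 2 with LPSx1 and 1, 1, 1 and 2 in media (-2.25 ± 0.71, adjusted p = 0.896; -1 with whole lists). In C57BL6/J Arhgef3 was higher with LPSx2 in 2 of 3 animals and lower in 0, and the strain difference did not pass (limma adjusted p = 1). No gene passed the test of a strain difference in the response (0 of 9141, 0%, with 275 at an unadjusted p under 0.05).

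Gene groups of the LPS response were described by counts, beside a median difference of 0 over all 9141 genes, of which 2883 had more peaks with LPSx2, 3368 fewer and 2890 the same mean. In every group 0 members passed the test in either direction. Among 23 interferon-stimulated genes tested, 3 had more peaks with LPSx2, 12 fewer and 8 the same, with a median of -0.25 peaks. Of them 4 were lower at an unadjusted p under 0.05 by limma. The same count was 250 of all 9141 genes, 3 of 18 oxidative stress genes and 3 of 32 negative regulators of Toll-like receptor signalling. No member of these 3 groups was higher at that level. Rsad2 had 0, 2, 1 and 0 peaks with LPSx2 in animals 2, 3, 5 and 8, against 3, 5, 1 and 2 with LPSx1 and 1, 1, 0 and 0 in media (-2 ± 0.66, limma adjusted p = 0.896). Mx1, which encodes a GTPase that blocks viral replication, had 1, 2, 0 and 0 with LPSx2, against 1, 3, 1 and 2 with LPSx1 (adjusted p = 1). The summed peaks of the list averaged 30 with LPSx2 (21 to 50) and 37.5 with LPSx1 (23 to 62), and these ranges overlapped. Within animals 2, 3, 5 and 8 the sums were 24, 50, 25 and 21 with LPSx2, against 34, 62, 31 and 23 with LPSx1, lower in 4 of 4 animals.

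Of 11 chemokine genes tested 6 had more peaks with LPSx2 and 3 fewer. Cxcl10 had 1, 1, 1 and 0 peaks with LPSx2, against 2, 2, 2 and 1 with LPSx1 and 0, 1, 0 and 0 in media (-1 ± 0.39, limma adjusted p = 0.992), lower by 1 in each animal. Ccl9 had 1, 3, 0 and 0 with LPSx2, against 1, 1, 0 and 0 with LPSx1. Of 19 inflammatory cytokine and mediator genes 7 had more and 7 fewer, with a median of 0. The activin subunit gene Inhba had 0, 2, 4 and 4 peaks with LPSx2, against 0, 3, 1 and 1 with LPSx1, and Csf2, which encodes the growth factor GM-CSF, had 1, 3, 2 and 0 with LPSx2, against 0, 1, 0 and 1 with LPSx1 (adjusted p = 0.992 each). The classical inflammatory genes thus showed no common direction.

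Of 19 genes of LPS sensing 4 had more peaks with LPSx2 and 11 fewer (median -0.25). The kinase gene Tbk1, which activates Irf3, had 3, 4, 2 and 2 with LPSx2, against 4, 5, 3 and 4 with LPSx1, lower in 4 of 4 animals (limma adjusted p = 0.992). The receptor gene Tlr4 had 2, 8, 8 and 6 with LPSx2, against 4, 7, 5 and 2 with LPSx1 (adjusted p = 1). Of 32 negative regulators of Toll-like receptor signalling 11 had more and 19 fewer (median -0.25). Tnfaip3, which encodes the NF-kB inhibitor A20, had 2, 6, 0 and 1 peaks with LPSx2, against 5, 6, 5 and 2 with LPSx1 and 3, 5, 5 and 5 in media (-2.25 ± 0.90, adjusted p = 0.992). Nfkbia, which encodes the inhibitor IkBa, had 7, 10, 4 and 3 with LPSx2, against 5, 9, 3 and 2 with LPSx1, higher in 4 of 4 animals (1.25 ± 1.22, adjusted p = 1).

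Genes of the AP-1 family showed no common direction. Of 14 tested 6 had more peaks with LPSx2 and 5 fewer. Fos had 5, 9, 3 and 1 with LPSx2, against 5, 5, 3 and 1 with LPSx1, and Mafg 2, 4, 3 and 0 with LPSx2, against 1, 1, 0 and 1 with LPSx1 (limma adjusted p of 1 and 0.992). Among 11 C/EBP, STAT and IRF factors Cebpb had 15, 22, 11 and 7 peaks with LPSx2, against 15, 18, 10 and 6 with LPSx1 and 4, 10, 6 and 8 in media, and Irf5 had 2, 2, 1 and 0 with LPSx2, against 2, 3, 2 and 3 with LPSx1. Of 18 oxidative stress genes 4 had more and 12 fewer (median -0.375). The summed peaks of this list in animals 2, 3, 5 and 8 were also lower with LPSx2 in each animal. They were 39, 69, 40 and 36, against 41, 72, 46 and 44 with LPSx1. The regulator Nfe2l2 itself had 4, 6, 5 and 5 with LPSx2, against 3, 3, 3 and 4 with LPSx1, higher in 4 of 4 animals (1.75 ± 0.95, adjusted p = 0.992), and the glutaredoxin gene Glrx had 7, 12, 5 and 4 with LPSx2, against 9, 11, 7 and 6 with LPSx1.

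Of 22 macrophage identity genes 10 had more and 6 fewer. Fcgr3, an Fc receptor gene, had 4, 7, 5 and 1 peaks with LPSx2, against 1, 6, 1 and 1 with LPSx1 (2.00 ± 0.70, limma adjusted p = 0.923), and the cathepsin gene Ctsb had 2, 5, 2 and 0 with LPSx2, against 2, 5, 4 and 3 with LPSx1. Of 23 glycolysis and Hif1a target genes 9 had more and 8 fewer. Pfkfb3, which drives glycolysis, had 10, 13, 8 and 7 with LPSx2, against 10, 13, 4 and 5 with LPSx1, and Pfkp 1, 2, 4 and 3 with LPSx2, against 2, 4, 4 and 4 with LPSx1. Of 8 antigen presentation genes 3 had more and 4 fewer. Tap1 had 0, 1, 0 and 0 peaks with LPSx2, against 1, 1, 1 and 1 with LPSx1, and H2-K1 had 3, 3, 3 and 0 with LPSx2, against 3, 3, 2 and 3 with LPSx1. In the remaining groups the members named had differences of 0.75 peaks each at Fpr1 and Lyz2 of the 21 antimicrobial genes, 1.00 at Scd2 of the 20 cholesterol genes, 0.75 at Ppard and 0.50 at Arg1 of the 10 alternative activation genes, 1.00 at Dnmt3a and -1 at Arid5a of the 15 chromatin genes, and 0.50 at Ahrr and 0.25 at Tiparp of the 3 aryl hydrocarbon receptor genes. Of 13 housekeeping genes 6 had more peaks with LPSx2 and 3 fewer, with 0.75 at Actb and at Gapdh.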

How the data were processed

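ATAC-seq libraries were made from 50000 cells each and deposited by the authors as 1 peak list per library (mm10, 201 bp peaks), with a column 4 score whose scale is not given, so read depth is not known. Per the submitters' processing notes, Trimmomatic 0.38, SAMtools 1.8, Picard 2.18.4, HOMER and bedtools were used, and the aligner is not given in the sources used here. Per the labels, reads were 50 bp and nucleosome-free fragments under 147 bp were used, with peaks named for a false discovery rate of 0.01.

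Overlapping peaks of a list were merged to the one with the best score, since 7 lists held duplicates. Lists were cut by score to the shortest of their lane (11349, 22037, 16045 and 13957 peaks for animals 2, 3, 5 and 8) for genes and regions, and to 13957 for shares. Of 24 libraries 22 were fitted, and 2 C57BL6/J lists under 5000 peaks (animal 6, LPSx2 with 1879 and media with 299) were left out. Peaks went to the nearest protein-coding TSS within 100 kb. Tests covered genes averaging 0.5 peaks or more and regions in at least 6 libraries, with limma 3.58.1 in R 4.3.3 (trend and robust, lane as covariate, 6 groups), with Benjamini-Hochberg adjustment. Shares were compared by 2-sided exact permutation (scipy 1.17.1). Python 3.11.15 was used otherwise. On counts simulated for 9141 genes with counting error alone, limma recovered 95% of genes raised 4-fold and 9% of genes raised 2-fold. The raised genes all averaged at least 2 peaks. This recovery therefore does not cover genes with fewer peaks, as many of the genes named have, nor decreases.

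The pairing by animal comes from the replicate numbers alone, and libraries of an animal also share a lane. Named genes were the 10 with the smallest p in each direction that moved one way in at least 3 animals and the other way in none, since no gene passed, plus the 2 members of each list with the largest differences (1 of them is not reported here), and named regions were the 5 with the smallest p in each direction and those gained or lost in 4 of 4 animals. Zfp36l2, Arhgef3 and the gained or lost regions at list genes fall outside this rule. The members and lists were chosen with earlier results of these data known. Alternatives were other list lengths, unmerged lists, other windows, a replicate block and leaving out each animal.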

Additional observations from a re-analysis of the deposited data

Results flagged for a closer look

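In groups of 4 libraries, the gap between an extreme library and its nearest neighbour was divided by the range of the group, and ratios above Dixon's 95% critical value are given here for list lengths, motif shares, the regions described and the genes named whose peak numbers spanned at least 4. For measurements without a floor chance gives such a ratio in about 1 in 20 groups. That rate does not apply to ranks, where a region listed in 1 of 4 libraries gives 1.0 by construction, nor to regions chosen by their ranks or detection. The merged list of animal 2 with LPSx2 held 127242 peaks, far above the other 3, with a ratio of 0.841. Fcgr3 had 6 peaks in animal 3 and 1 in each other animal with LPSx1, a ratio of 1.0.

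Among LPSx2 libraries the ratio was 0.906 at the Gm12258 region, where animal 5 ranked at 40.5, and 0.845 at the Hsd11b1 region, where animal 3 ranked at 37.4. It was 0.892 at the Chst14 region, where animal 2 ranked at 3.24. It was 1.0 at the Fem1a region, where animal 5 alone was listed, and 1.0 at the Tgoln1, Tap1 and Ifit1 regions, where animal 3 alone was listed. Among LPSx1 libraries the ratio was 0.862 at the Klf3 region, where animal 2 was not listed, and 0.872 at the region nearest to Dnajb12, where animal 3 ranked at 47.7. It was 1.0 at the regions nearest to Ston1, Plekho2 and Tfec, where animal 3 alone was listed, and 1.0 at the region nearest to Maf, where animal 2 alone was listed.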

How the results depend on the processing

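The AP-1 difference kept its direction under all 12 alternatives, from -1.52 points over all peaks (exact permutation p = 0.429) to -4.17 with the upper part of each list (the better-scoring 50%), and from -2.95 to -4.79 when 1 animal was left out. With the replicate block it was -3.72 (exact p = 0.125), genes passing were 0 (375 at an unadjusted p under 0.05) and regions passing 0 (1247), so the pairing alone changed no call. Genes passing numbered 1 with the upper part of each list (Morf4l1), 0 to 3 when 1 animal was left out, 3 of them without animal 2 (Cntln, Tmem35b and Isoc1), and 30 (14 higher, 16 lower) with 8 libraries, lists cut per animal and a replicate block. All 30 differed by exactly 1 peak in each animal. Without animal 2, Cntln and Tmem35b also differed by exactly 1 peak in each animal left, so the spread within their groups was 0. Morf4l1 had a mean difference of -1 peak and Isoc1 of 1.67 peaks. Genes passing the strain test numbered 1 with one length for all lanes (Rasa2), 1 with the upper part (Morf4l1) and 0 to 2 when 1 animal was left out, 2 of them without animal 2 (Cntln and Tmem35b). Each of these strain differences was 1 peak in size. Gained regions numbered 67 with whole lists, 64 with the upper part and 723 to 1204 when 1 animal was left out, where 2 of 3 animals sufficed. Lost regions numbered 79 with lists cut per animal (105 gained), 112 with the upper part and 893 to 1454 when 1 animal was left out. The log2 difference in list length turned to 0.125 without merging and ranged from -0.15 to 0.10 when 1 animal was left out, 0.104 without animal 3. Small motif differences turned sign: PU.1 to -0.0396 with the upper part and a range of -0.261 to 0.743 when 1 animal was left out (-0.142 without animal 3), C/EBP to a range of -0.539 to 0.463 (-0.121 without animal 3), and STAT to -0.0376 over all peaks. CRE turned to 0.00109 beyond 5 kb and SP/KLF to a range of -0.375 to 0.00684 when 1 animal was left out. RUNX turned to -0.247 with the upper part, a range of -0.0210 to 0.0394 when 1 animal was left out (-0.0171 without animal 3), -0.0564 at 45% to 55% GC and -0.0620 beyond 5 kb. CTCF turned to 0.0132 with lists cut within lanes, 0.0254 with whole lists, 0.00179 over all peaks, a range of -0.0455 to 0.0529 when 1 animal was left out and 0.0793 beyond 5 kb. With whole lists Ndfip1 and Nfx1 turned to -0.50 peaks, Pcnx2 to 0.25 and Zfp36l2 to -1.75, and with 8 libraries Ndfip1 to -0.50 and Pcnx2 to 0.25. The GC and 5 kb alternatives were chosen after seeing the data, and the causes were not tested. The lists hold no read counts, so a region not listed may lie just under the score at which a list ended.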
